A study of Mus musculus with 6 samples.

Results

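The tumor necrosis factor (TNF) receptor family was examined through 10 member genes in the H3K4me1 and H3K4me3 peak lists of mouse germinal center (GC) B cells. The members are 10 of the 21864 protein-coding genes of the annotation, and the rule names them by family and function and uses no measured value, although they were picked with earlier results of these data known. Cd40, Tnfrsf13c (BAFF receptor), Tnfrsf13b (TACI) and Tnfrsf17 (BCMA) were taken as the B cell receptors, and Tnfrsf4 (OX40), Tnfrsf9 (4-1BB) and Tnfrsf18 (GITR) as the T cell receptors. Tnfrsf14 (HVEM), Tnfrsf1a and Tnfrsf1b (both TNF receptors), which many cell types use, formed a class of broadly used receptors. The classes are textbook groupings, and other cell types can also use a receptor of either group. For each member, a peak with an edge within 5 kb of one of its protein-coding transcription start sites (TSSs) was called a promoter peak, a peak elsewhere over the gene a body peak, and a peak 5 to 50 kb from the nearest own TSS and outside the gene an outlying peak.

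The 6 libraries were made by Mint-ChIP, a multiplexed chromatin immunoprecipitation for small cell numbers, with 3 replicates for each mark. All came from spleens of mice labelled WT, taken 8 days after an SRBC (sheep red blood cell) immunization, which drives GC formation, with 50000 sorted cells per library. The labels call the cells GC Centrocytes, the light zone fraction of the GC, and the study's methods call them GC B cells. No mutant group was included, so the design compares marks, and comparisons among receptors are made within each library. The age of these mice was not given in the labels, and mice called WT in other experiments of the study carried Cγ1 cre/+, a Cre allele switched on in GC B cells. Whether the 3 replicates are separate animals or portions of 1 sort was not stated, so the spread between them may be technical.

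TNF receptors are membrane proteins that are clustered by trimeric ligands and pass the signal to TRAF adaptors or, where they carry a death domain, to death domain adaptors, and many of them activate NF-κB. In the GC, light zone B cells receive help from follicular T cells through CD40, while the receptors for BAFF and APRIL sustain mature B cells and, in the case of BCMA, plasma cells. H3K4me3 is typical of the starts of active genes. H3K4me1 is typical of enhancers and of the flanks of active promoters.

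Sequences upstream of 6 receptors are shown first, because they cover both ends of the H3K4me3 range described below: Tnfrsf13c and Tnfrsf14 had wide peaks over the TSS, Tnfrsf17 had a peak that began downstream of it, Tnfrsf18 had a narrow peak, and Tnfrsf1a and Tnfrsf4 had no peak over the TSS in any library. Each sequence is the 250 bases before the RefSeq transcript start in GRCm38.p6, written 5′ to 3′ in the direction of transcription, with CG dinucleotides in capitals. The RefSeq start can differ from the TSSs used for the peaks. The Tnfrsf14 and Tnfrsf18 sequences contain the most upstream of those TSSs, so part of each lies downstream of it.
Tnfrsf13c, chr15:82224381-82224630, minus strand: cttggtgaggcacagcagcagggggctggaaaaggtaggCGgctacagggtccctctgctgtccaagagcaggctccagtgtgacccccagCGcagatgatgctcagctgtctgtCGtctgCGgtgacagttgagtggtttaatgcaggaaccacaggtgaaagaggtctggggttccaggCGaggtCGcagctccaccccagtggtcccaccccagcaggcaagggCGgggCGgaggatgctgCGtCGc
Tnfrsf14, chr4:154928078-154928327, minus strand: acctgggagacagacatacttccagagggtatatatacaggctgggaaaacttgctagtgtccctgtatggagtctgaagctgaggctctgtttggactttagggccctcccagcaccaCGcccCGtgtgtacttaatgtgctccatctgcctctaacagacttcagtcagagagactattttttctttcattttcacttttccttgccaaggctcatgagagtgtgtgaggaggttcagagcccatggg
Tnfrsf17, chr16:11313559-11313808, plus strand: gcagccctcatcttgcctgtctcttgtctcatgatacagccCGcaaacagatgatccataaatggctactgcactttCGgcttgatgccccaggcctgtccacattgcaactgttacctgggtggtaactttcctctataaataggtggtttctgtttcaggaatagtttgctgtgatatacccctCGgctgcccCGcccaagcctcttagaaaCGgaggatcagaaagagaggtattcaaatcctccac
Tnfrsf18, chr4:156026072-156026321, plus strand: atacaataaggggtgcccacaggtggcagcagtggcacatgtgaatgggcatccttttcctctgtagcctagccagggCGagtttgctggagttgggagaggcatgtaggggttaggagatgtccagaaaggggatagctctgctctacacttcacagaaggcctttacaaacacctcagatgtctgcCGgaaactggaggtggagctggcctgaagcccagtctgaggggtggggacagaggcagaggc
Tnfrsf1a, chr6:125349473-125349722, plus strand: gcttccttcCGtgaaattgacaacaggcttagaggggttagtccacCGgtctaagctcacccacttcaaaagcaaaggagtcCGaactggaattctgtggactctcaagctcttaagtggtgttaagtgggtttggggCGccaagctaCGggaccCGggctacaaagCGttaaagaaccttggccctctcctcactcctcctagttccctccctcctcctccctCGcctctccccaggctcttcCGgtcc
Tnfrsf4, chr4:156013445-156013694, plus strand: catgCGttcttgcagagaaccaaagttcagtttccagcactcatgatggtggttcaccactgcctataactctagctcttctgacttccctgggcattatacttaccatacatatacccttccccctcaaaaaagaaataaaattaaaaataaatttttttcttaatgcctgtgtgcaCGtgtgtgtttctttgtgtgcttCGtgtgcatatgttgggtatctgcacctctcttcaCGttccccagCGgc

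The RefSeq promoter table matched 9 of the 10 members. The 250-base sequences held 10 CG dinucleotides in Tnfrsf13c, 2 in Tnfrsf14, 5 in Tnfrsf17, 2 in Tnfrsf18, 9 in Tnfrsf1a and 5 in Tnfrsf4. The median over 20143 promoters of protein-coding genes was 10. Of the sequences shown, Tnfrsf14 with 2 was widely marked, and Tnfrsf1a with 9 had little of the mark. Tnfrsf13c, at the median, was widely marked, and Tnfrsf18 with 2 had a narrow peak. The remaining promoters held 8 (Tnfrsf13b), 12 (Tnfrsf1b), and 4 at each of both starts listed for Tnfrsf9. Relative to the number that base composition alone would give, every member promoter lay below the median of all promoters, at observed-to-expected ratios of 0.108 (Tnfrsf18) to 0.487 (Tnfrsf1b) against 0.551.

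Short motifs were searched on both strands of the same windows. The E-box CAGGTG occurred in Tnfrsf13c, Tnfrsf18 and Tnfrsf1b, and in 16.9% of all promoters. The letters TATAAA occurred in Tnfrsf17 alone among the members, and in 11.2% of all promoters. Matches to the kappaB consensus, the binding sequence of NF-κB, occurred at the downstream of the 2 Tnfrsf9 starts and in 4.31% of all promoters. The octamer ATGCAAAT and the PU.1 and ETS motif GAGGAAGT were in none of the member windows, and in 1.46% and 2.28% of all promoters, respectively. These matches describe letters in a window and not binding.

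Of 5 H3K4me1 regions around members that were found in all 3 H3K4me1 libraries, 3 of the 4 with the highest mean fold enrichment are shown, because they are among the candidate regulatory elements seen most often. For each, 200 bases centered on the highest summit are given on the plus strand. A region is a chain of overlapping peaks, so the 200 bases need not lie under a peak in each library: the Tnfrsf13c window overlapped the replicate 1 peak alone, and the Cd40 window lay outside the replicate 2 peak. Regions were assigned to members by distance alone. The Tnfrsf13c region lay 10710 bp from its TSS and 8751 bp from that of Cenpm. The Cd40 region lay 25966 bp from its TSS and 5127 bp from that of Ncoa5. The Tnfrsf13b region lay nearer its own TSS (15636 bp) than that of Kcnj12 (44622 bp). Capitals in the sequences mark any match to the motifs above.
Tnfrsf13c, in an intron of Cenpm, upstream of the gene, chr15:82235022-82235221: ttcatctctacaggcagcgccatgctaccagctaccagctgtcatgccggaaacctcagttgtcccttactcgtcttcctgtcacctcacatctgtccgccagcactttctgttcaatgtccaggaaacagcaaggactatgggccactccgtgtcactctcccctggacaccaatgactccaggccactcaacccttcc
Tnfrsf13b, intergenic, upstream of the gene, chr11:61110533-61110732: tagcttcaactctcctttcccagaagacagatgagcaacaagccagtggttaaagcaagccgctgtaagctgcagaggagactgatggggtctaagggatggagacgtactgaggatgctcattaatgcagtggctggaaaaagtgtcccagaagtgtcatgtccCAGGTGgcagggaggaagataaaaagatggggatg
Cd40, in an intron of Ncoa5, upstream of the gene, chr2:165029134-165029333: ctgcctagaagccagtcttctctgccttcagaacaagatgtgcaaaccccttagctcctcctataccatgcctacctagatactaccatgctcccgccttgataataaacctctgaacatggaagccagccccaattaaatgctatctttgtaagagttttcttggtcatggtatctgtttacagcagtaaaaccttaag

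Fold enrichment is a deposited linear ratio, read here as fragments over local background because the file layout is of that kind and the peak caller is not given in the sources used here. It averaged 6.27, 5.90 and 5.16 in these regions, in the order shown. The E-box in the Tnfrsf13b window was the only match in the 3 sequences. Over all 18 H3K4me1 regions around members, 2 windows held an E-box, 3 held TATAAA and 1 held the kappaB consensus, against 15.2%, 9.95% and 1.74% of the windows of all 8430 H3K4me1 regions.

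The libraries differed in the number of peaks. The H3K4me1 lists held 11922 to 24136 peaks, with the fewest in replicate 3, and the H3K4me3 lists 41936 to 46707. Total reads were not used, and the summit of an H3K4me1 peak rested on a median of 6 fragments in each library, so a region with this mark can go uncalled. H3K4me1 peaks were called as narrow peaks with a summit and H3K4me3 as broad peaks at a lower threshold, so contrasts between the marks include a contrast between calling modes. Peaks in sorted cells also do not tell a mark in few cells from a weak mark in all of them.

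Defining genes of the labelled cell type were marked throughout. Promoter H3K4me3 peaks were present in all 3 libraries at 8 of 8 B cell genes (such as Ms4a1, Cd79a and Pax5) and 7 of 7 GC B cell genes (such as Bcl6 and S1pr2), and the summed coverage was 56788 to 65366 bp and 39476 to 46433 bp per library. Of 12 T cell genes, 3 had a promoter peak in all libraries (Cd3d, Lck and Zap70) and the summed coverage was 10792 to 12981 bp, of which Lck held 8579 to 10671 bp. Cd3e, Cd4, Cd8a, Cd28, Cd247 and Icos had no promoter H3K4me3 in any library. Of 6 myeloid genes 3 were marked in all libraries (1509 to 3914 bp summed, Lyz2 and Mpo at 0), and of 4 erythroid genes 3 (3149 to 4871 bp summed, Gata1 at 0). By the same rule, 56.2% of all protein-coding genes had promoter H3K4me3 in all libraries. The part of other cells in the results below was not tested.

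Promoter H3K4me3 separated the B cell from the T cell receptors in every library in the 5 kb window. The median promoter coverage of the B cell receptors was 5180.5, 5226.5 and 5485 bp in H3K4me3 replicates 1, 2 and 3, and that of the T cell receptors was 367, 499 and 477 bp. The T cell receptor medians were the values of Tnfrsf9, whose promoter peak lay over the start of Park7, as described below. The difference between the class medians was 4849.7 ± 143.7 bp (SD, n = 3 libraries), and no T cell receptor reached the lowest B cell receptor in any library in this window. Within 1 kb of a TSS this order did not hold, since Tnfrsf18 had 469, 418 and 498 bp and Tnfrsf17 had 0 bp in each library. The broadly used receptors had medians of 2323 to 2415 bp, and their members overlapped both other classes. The median over all protein-coding genes was 868 to 1153 bp. No test was made between receptor classes, since genes of a class are not replicates. The difference was 3018.8 bp with only the 10000 best peaks per library, 1426.5 bp in a window of 1 kb, and 2969 bp with the broadly used receptors counted as B cell receptors.

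A promoter H3K4me3 peak was present in all 3 libraries at 8 of 10 members, all except Tnfrsf1a and Tnfrsf4, against 56.2% of all protein-coding genes. With the 10000 best peaks per library the count was 3. No share of all genes is given at that setting, so 56.2% is not its comparison. Coverage of the TSS itself was rarer. A peak lay over a TSS in all 3 libraries at 6 members (Cd40, Tnfrsf13c, Tnfrsf13b, Tnfrsf14, Tnfrsf1b and Tnfrsf18), against 38.4% of all genes. Tnfrsf17 and Tnfrsf9 had promoter peaks that did not reach the TSS, as described for each gene below.

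**Figure D1:**
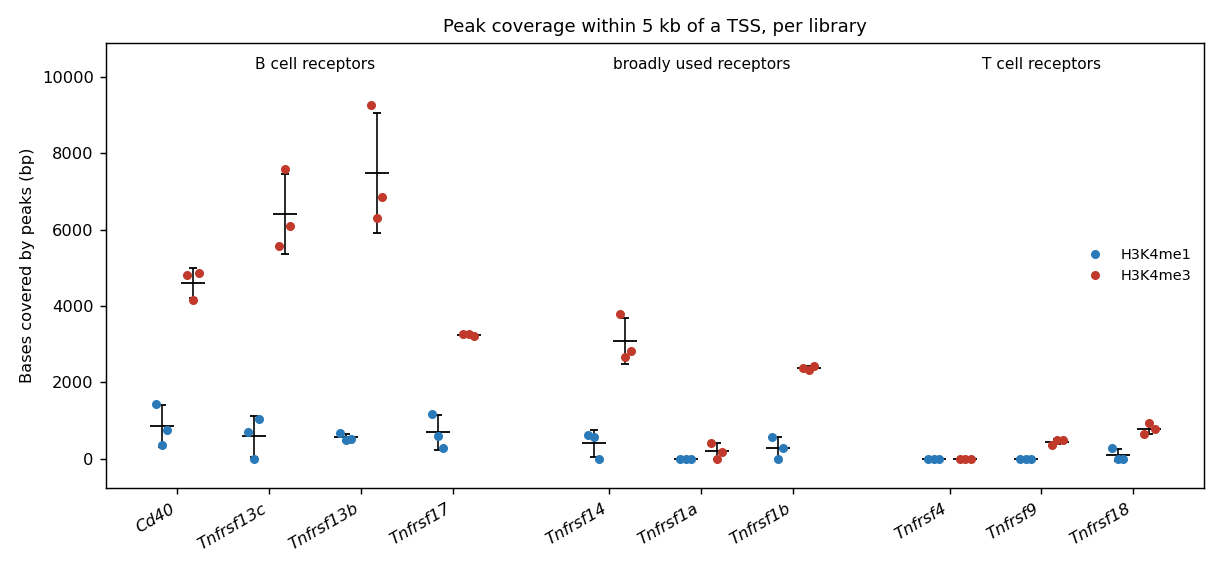
Bases within 5 kb of any protein-coding TSS of each receptor gene (x axis) that peaks cover, in bp (y axis). Points are the 3 libraries of each mark, horizontal bars the mean and whiskers the SD. H3K4me3 covered 3203 bp or more in every library at each B cell receptor and at most 943 bp at each T cell receptor.

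Among the B cell receptors, Cd40 encodes the receptor for T cell help. Its promoter H3K4me3 coverage was 4804, 4158 and 4866 bp in replicates 1, 2 and 3, and a single peak of 2878 to 4866 bp lay over the TSS (chr2:165055627, plus strand) in each library. A further H3K4me3 peak of 2509 to 3269 bp was found in the gene body in all 3 libraries, starting 5208 to 5641 bp downstream of the nearest TSS. Wide marking of the 5′ part of Cd40 was thus seen in every library, and 95.7% to 97.4% of all genes had a smaller covered share of the promoter window. H3K4me1 covered 1440, 353 and 763 bp of the promoter window. Only replicate 1 had an H3K4me1 peak over the TSS.

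Tnfrsf13c, the receptor through which BAFF keeps mature B cells alive, had the longest coverage per window. H3K4me3 covered 5557, 7587 and 6104 bp, more of the window than in 97.6% to 99.8% of all genes. The peak over the TSS (chr15:82224369, minus strand) was 2289, 3367 and 2421 bp wide. Another H3K4me3 peak began 1026, 964 and 1372 bp downstream of the TSS and in each library ran past the gene's 3′ end (chr15:82221743). The promoter coverage thus includes bases outside the gene. In replicates 2 and 3 this peak lay 4817 and 3502 bp from the TSS of the neighbor Shisa8. The mark therefore lay on both sides of a gap just downstream of the TSS in all 3 libraries. H3K4me1 in the promoter was uneven, at 704, 0 and 1049 bp. Upstream, an H3K4me1 region in all 3 libraries (chr15:82235079-82235976) lay in an intron of Cenpm, 10710 bp from the TSS, and overlapped an H3K4me3 region of 2132 bp.

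Tnfrsf13b encodes TACI, a receptor for BAFF and APRIL, and has 2 protein-coding TSSs that are 14080 bp apart. Its promoter window (20002 bp) is thus the largest of the members, with that of Tnfrsf9 (19522 bp) close to it. H3K4me3 covered 9262, 6295 and 6861 bp of it. At the upstream TSS (chr11:61126755, plus strand) a peak of 1780 to 2403 bp covered the start in each library with fold enrichments of 5.83, 6.73 and 5.98. At the downstream TSS (chr11:61140835) the peak was higher, with fold enrichments of 9.50, 8.13 and 9.67, and 2751 to 3904 bp wide. It covered that TSS in replicate 1 and began 529 and 604 bp downstream of it in replicates 2 and 3. The stronger H3K4me3 peak in every library was thus the one near the internal start.

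Upstream of Tnfrsf13b, an intergenic H3K4me3 region of 6248 bp (chr11:61108227-61114474) was present in all 3 libraries, 12281 bp upstream of the nearest TSS and not within 5 kb of another coding TSS. An H3K4me1 region found in all 3 libraries, chr11:61110426-61111119, lay within it, with 6 to 9 fragments at the summit. Other H3K4me1 peaks of this gene varied between libraries: the promoter coverage was 662, 496 and 527 bp, but no H3K4me1 region within 5 kb of a TSS was found in all 3 libraries. Similar covered lengths in this gene therefore came in part from different peaks.

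Tnfrsf17 encodes BCMA, the survival receptor of plasma cells, and its marks lay downstream of its single annotated TSS (chr16:11313812, plus strand). H3K4me3 covered 3271, 3267 and 3203 bp of the promoter window, the smallest spread of any B cell receptor, yet 0 bp within 1 kb of the TSS in every library. The main peak began 1310, 1054 and 1329 bp downstream of the TSS. In replicate 2 it was split into peaks of 825 and 2734 bp, and that library alone had a peak upstream, of 180 bp. The main peak also lay within 5 kb of the TSS of Snx29, at 4516 and 4565 bp in replicates 1 and 3. In replicate 2 its larger piece was 3624 bp from that TSS. H3K4me1 covered 1180, 590 and 291 bp, all of it downstream of the TSS as well, and no H3K4me1 region in the promoter window was found in all 3 libraries. Further downstream, near the start of the neighboring gene Snx29, H3K4me3 (fold enrichment 8.47 to 10.3) and H3K4me1 (chr16:11323258-11324210) were present in all 3 libraries.

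**Figure D2:**
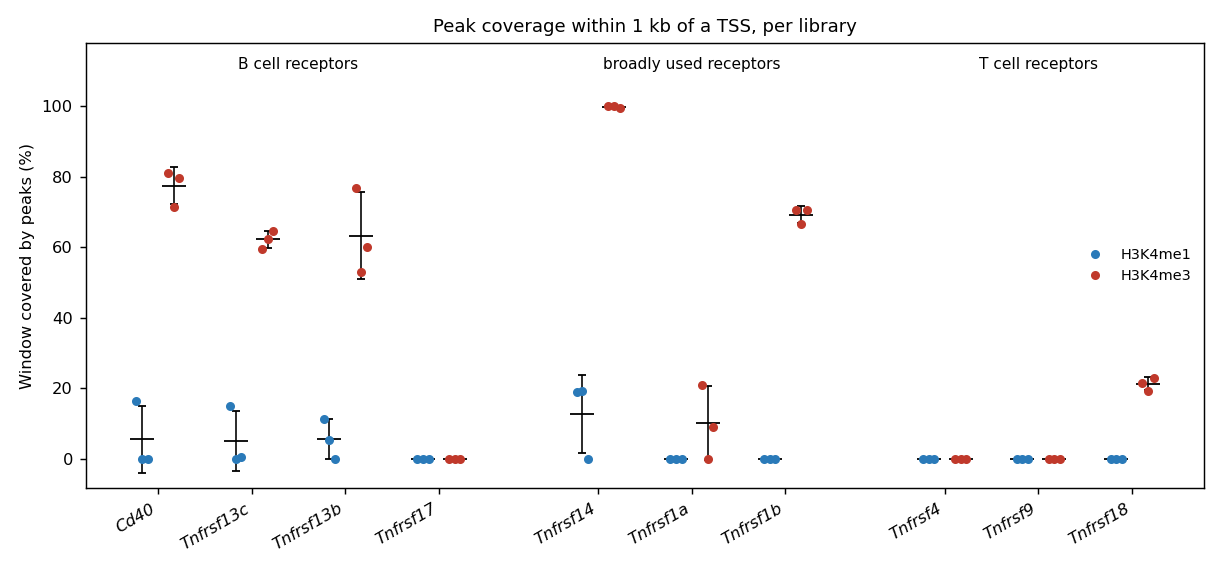
Share of the bases within 1 kb of any protein-coding TSS that peaks cover (y axis, %), for each receptor gene and library. Points are libraries, horizontal bars means and whiskers SDs (n = 3 per mark). Tnfrsf17, Tnfrsf4 and Tnfrsf9 were at 0 for both marks in every library.

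Of the broadly used receptors, Tnfrsf14 encodes the receptor for LIGHT and BTLA. Its H3K4me3 coverage was 3780, 2666 and 2831 bp, in 1 peak over the TSS (chr4:154928202, minus strand) in each library, and at least 2113 of the 2126 bp within 1 kb of a TSS were covered. It was thus the member with the most complete marking around the TSS itself. H3K4me1 covered 623, 575 and 0 bp, and its region just upstream (chr4:154928941-154929422, found in 2 libraries) had up to 12 fragments at the summit, the highest of any H3K4me1 region around a member. An intergenic region 22228 bp downstream of the TSS had higher H3K4me3 than the promoter on average, with fold enrichments of 7.90 to 11.02 against 6.60 to 8.32.

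Tnfrsf1b and Tnfrsf1a, which encode both TNF receptors, differed in marking. Tnfrsf1b, the form without a death domain, had H3K4me3 coverage of 2382, 2323 and 2415 bp with a peak of 1783 to 1887 bp over the TSS (chr4:145246870, minus strand). It also had 3 intronic H3K4me3 regions found in all 3 libraries, between 5214 and 12051 bp downstream of the TSS. Tnfrsf1a, the form with a death domain, had 419, 0 and 180 bp, from 1 small peak each in replicates 1 and 3 that lay on different sides of the TSS (chr6:125349723, plus strand) and did not cover it. No library of Tnfrsf1a came near the lowest value of Tnfrsf1b. No H3K4me1 peak was found at Tnfrsf1a within 50 kb in any library, whereas Tnfrsf1b had promoter H3K4me1 of 570, 0 and 279 bp.

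The T cell receptors had little of their own. Tnfrsf4, the OX40 costimulatory receptor, had no promoter or body peak of either mark in any library. Its outlying H3K4me3 regions were at B3galt6 and Sdf4, 19561 bp upstream, and around its neighbor Tnfrsf18, 12188 and 17322 bp downstream. Tnfrsf4 and Tnfrsf18 therefore share outlying peaks, and the 9 H3K4me3 regions listed for the T cell receptors are 6 distinct regions.

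Tnfrsf9, the 4-1BB costimulatory receptor, had promoter H3K4me3 of 367, 499 and 477 bp, all of it from a peak over the start of another gene. The only promoter peak, 2246, 2169 and 1754 bp wide, covered the TSS of Park7, and its near edge was 4634, 4502 and 4524 bp upstream of the nearest Tnfrsf9 TSS. The annotated span of Tnfrsf9 begins inside this peak (chr4:150914562), but none of its 5 protein-coding TSSs lies there. Neither mark had a peak within 1 kb of those TSSs, and no H3K4me1 peak was found within 50 kb. With peaks over another gene's TSS left out, an alternative chosen after seeing the data, Tnfrsf9 fell to 0 bp in every library, 7 members instead of 8 had promoter H3K4me3, and the difference between B cell and T cell receptors was 5297.3 bp. No share of all genes is given for this alternative.

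Tnfrsf18, the GITR costimulatory receptor, had coverage of 647, 943 and 773 bp. A narrow H3K4me3 peak of 469, 418 and 498 bp covered 1 or both of its protein-coding TSSs (chr4:156026164 and chr4:156026342, plus strand) in all 3 libraries, with fold enrichments of 5.16, 3.29 and 4.97. In replicate 2 the peak covered the downstream TSS alone. It was the only T cell receptor with a peak over its own start, and the peak also overlapped an exon of the gene model Gm16008. H3K4me1 covered 266 bp of the promoter window in replicate 1, in a peak 3518 bp downstream of the TSS, and 0 bp in replicates 2 and 3.

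**Figure D3:**
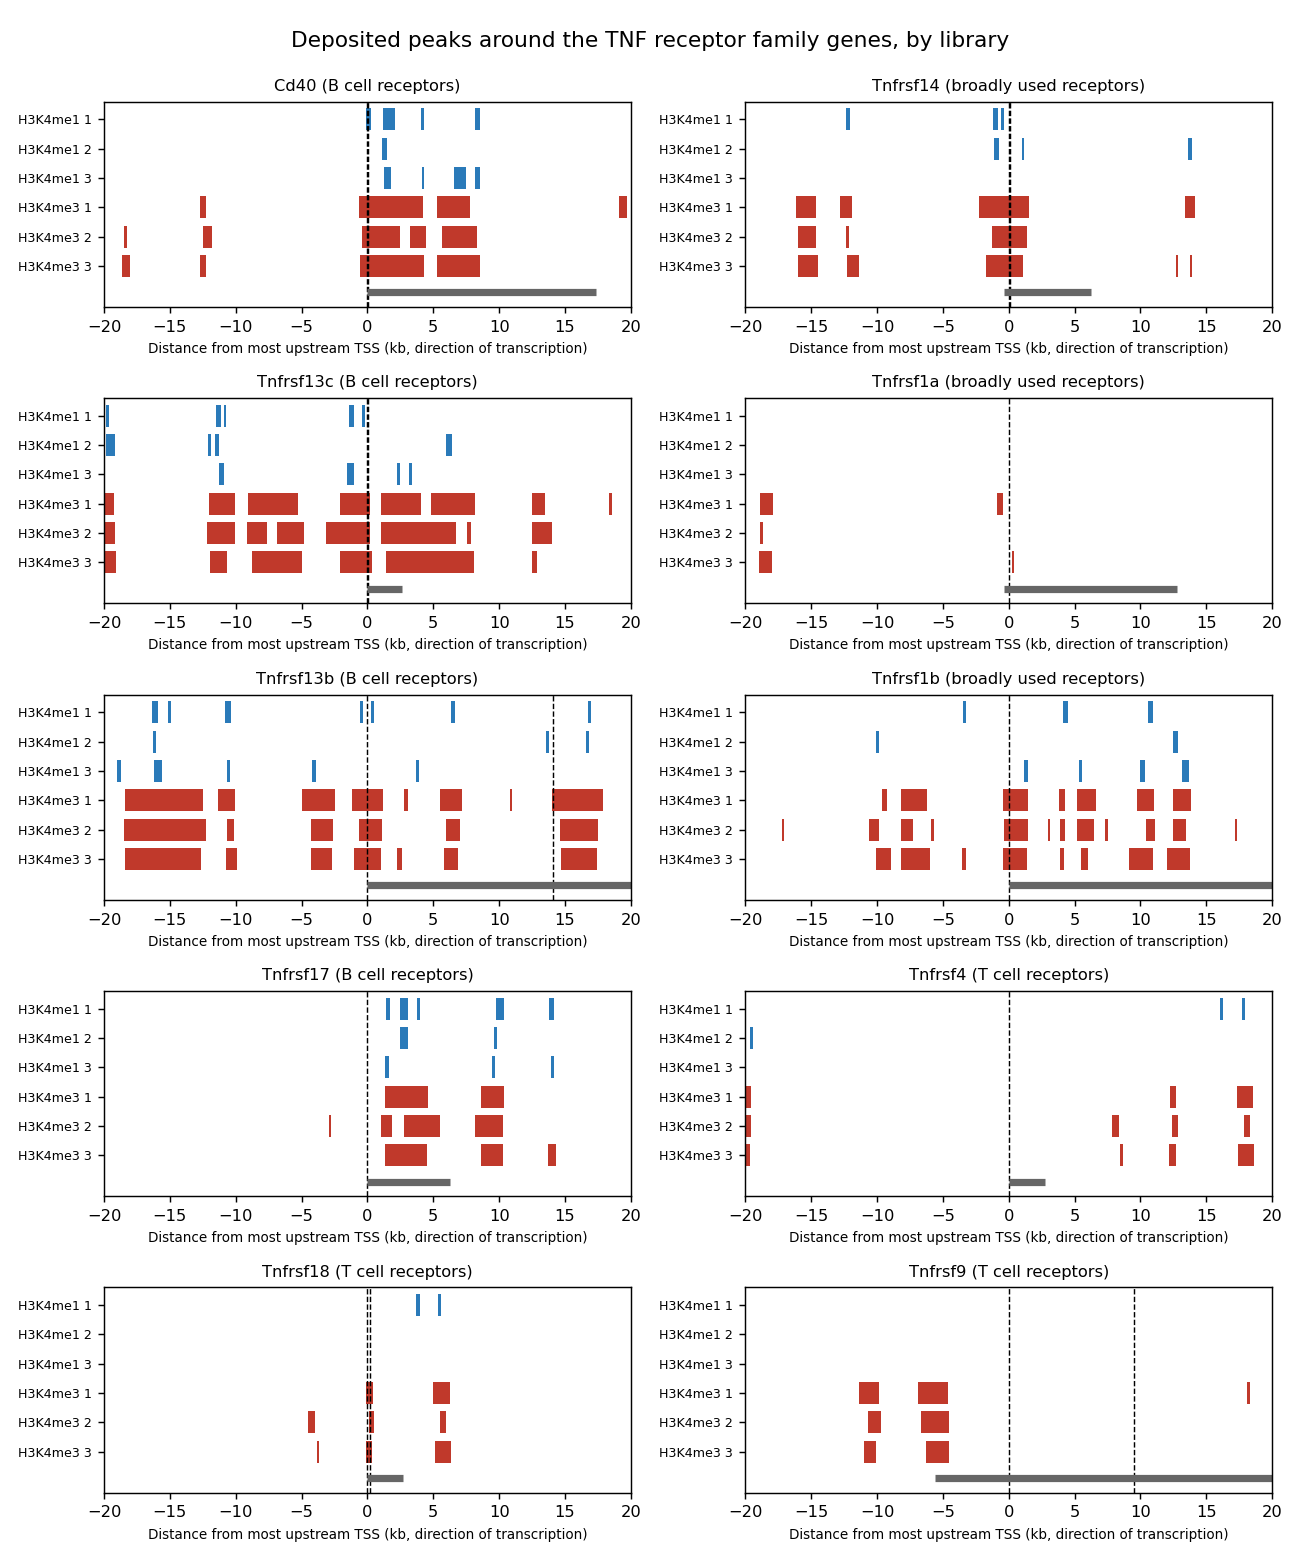
Deposited peaks within 20 kb of the most upstream TSS of each receptor gene. The x axis is the distance from that TSS in kb in the direction of transcription, each row is a library (H3K4me1 replicates 1 to 3 in blue, H3K4me3 replicates 1 to 3 in red), the gray bar is the gene and dashed lines are its most upstream and most downstream protein-coding TSS. At Tnfrsf17 the peaks begin 1054 bp or more downstream of the dashed line, except for a 180 bp peak upstream in H3K4me3 replicate 2, and at Tnfrsf9 the nearest peaks lie over Park7.

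H3K4me1 peaks were found in all 3 libraries at fewer members than H3K4me3 peaks, as was so over all genes. A promoter H3K4me1 peak was found in all 3 libraries at 3 members (Cd40, Tnfrsf13b and Tnfrsf17), all B cell receptors, against 6.17% of all genes. At Tnfrsf13b and Tnfrsf17 these peaks lay in part at different places, and no promoter H3K4me1 region there was found in all 3 libraries. The count of members with a promoter H3K4me1 peak was 5 without H3K4me1 replicate 2, and 0 with a −log10 q-value of at least 5 or within 1 kb of a TSS. No share of all genes is given at these settings, so 6.17% is not their comparison. No member had H3K4me1 over a TSS in all 3 libraries, as did 0.0274% of all genes. Body peaks were found in all 3 libraries at Tnfrsf1b (6.64% of all genes), and outlying peaks at 5 members (20.4% of all genes), namely the 4 B cell receptors and Tnfrsf14. The Tnfrsf1b body peaks lay at different places in each library and did not overlap. The outlying H3K4me1 regions of Tnfrsf14 were each found in 2 libraries.

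Peaks outside the promoter also differed between receptor classes. The B cell receptors had 3.5, 2.5 and 2.25 H3K4me1 peaks per gene in the body or 5 to 50 kb away in replicates 1, 2 and 3, and the T cell receptors 2, 0.667 and 0. The difference was 1.86 ± 0.376 peaks per gene (SD, n = 3). For H3K4me3 the B cell receptors had 5.25, 4.75 and 4 and the T cell receptors 2.67, 2.67 and 3 peaks per gene, a difference of 1.89 ± 0.809. With a −log10 q-value of at least 5 these differences were 0.667 and 1.0 peaks per gene. The broadly used receptors had 2.67, 1.67 and 1.67 H3K4me1 peaks per gene. Their H3K4me3 values of 5.67, 7.67 and 5.33 were above those of the B cell receptors in every library. All genes averaged 0.85 to 1.75 H3K4me1 and 2.98 to 3.30 H3K4me3 peaks. In H3K4me3, every member had an outlying peak in all 3 libraries (60.3% of all genes), and Cd40, Tnfrsf13b and Tnfrsf1b had a body peak in all 3 (19.3% of all genes).

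**Figure D4:**
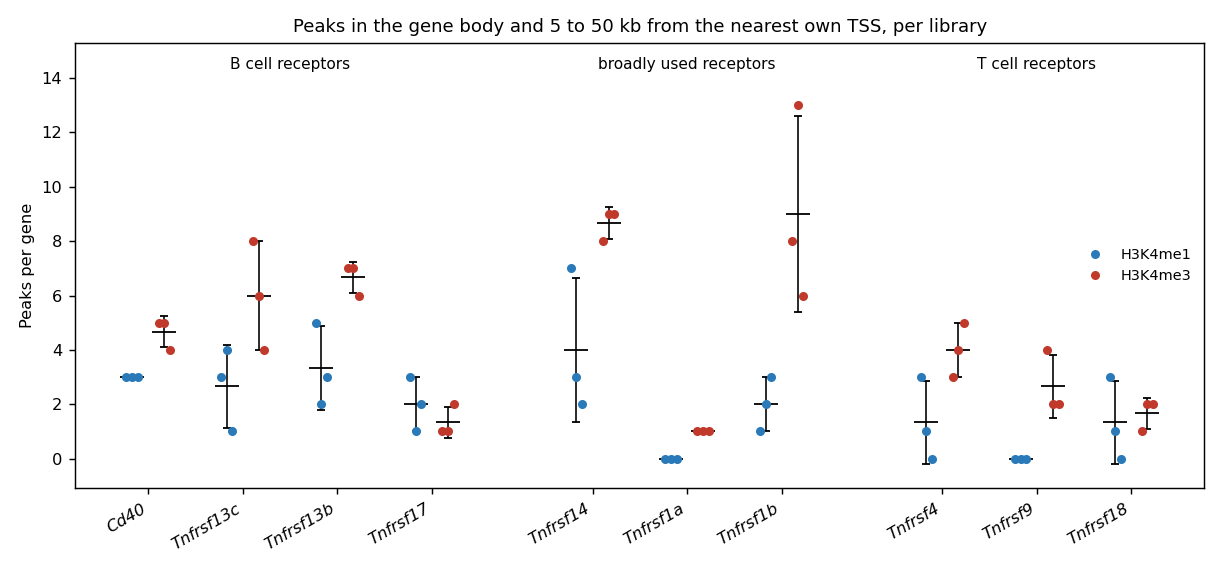
Number of peaks in the gene body and 5 to 50 kb from the nearest own TSS (y axis) for each receptor gene. Points are the 3 libraries of each mark, horizontal bars means and whiskers SDs. Cd40 had 3 H3K4me1 peaks in each library, while Tnfrsf1a and Tnfrsf9 had 0 in each.

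Of these peaks, many lay near the TSS of another gene. In the H3K4me3 libraries, 5 of 8, 5 of 8 and 8 of 9 peaks counted for the T cell receptors lay within 5 kb of another gene's TSS, compared with 7 of 21, 10 of 19 and 8 of 16 for the B cell receptors. The T cell receptor counts hold the peaks at B3galt6 and Sdf4 once for Tnfrsf4 and again for Tnfrsf18. For Tnfrsf4 they also include peaks near the TSS of Tnfrsf18, itself a T cell receptor. H3K4me1 regions present in at least 2 libraries numbered 14 around the B cell receptors, 4 around the broadly used receptors (all at Tnfrsf14) and 0 around the T cell receptors. Of these 18 regions 16 overlapped an H3K4me3 region, against 94.4% of all 8430 H3K4me1 regions. The exceptions were the region in Ncoa5 upstream of Cd40 and 1 region in Snx29 downstream of Tnfrsf17, 13771 bp from the TSS.

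Between marks, promoter coverage was higher for H3K4me3 than for H3K4me1 at 8 members with no overlap of the libraries, against 55.8% of all genes. The mean differences ranged from 447.7 bp (Tnfrsf9) to 6911 bp (Tnfrsf13b), each with an exact two-sided permutation p = 0.1 (n = 3 per mark), the smallest p this design allows. Tnfrsf1a differed by 199.7 bp (exact permutation p = 0.4, n = 3 per mark), and Tnfrsf4 was at 0 for both marks. No p in this contrast can pass 0.05.

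The rest of the pathway was described from lists of ligands, adaptors and other receptors. Of 16 adaptor and kinase genes, 16 had promoter H3K4me3 in all 3 libraries, with a median of 5195.3 bp. The longest coverage was at Traf1, an adaptor induced by NF-κB, with 10681, 10178 and 10647 bp, followed by Tank, a TRAF-binding protein (7616 to 9893 bp), and Tnfaip3, which encodes the NF-κB inhibitor A20 (6845 to 6905 bp). Every adaptor and kinase of the list was thus marked in these 3 libraries. Genes of each list were ranked by bases covered and not by share of the window, and genes with widely spaced TSSs have larger windows.

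Of 16 genes for ligands and partners, 12 had promoter H3K4me3 in all 3 libraries and 4 in none (Cd40lg, Fasl, Tnfsf11 and Tnfsf8), with a median of 1657.3 bp. Those with the longest coverage were Lta (4438 to 7472 bp) and Ltb (5474 to 6387 bp), neighboring genes that encode the lymphotoxins, and Btla (5177 to 6588 bp), an immunoglobulin family partner of HVEM. The ligand of CD40, which is known from activated T cells, and Fasl, the death ligand of cytotoxic cells, were at 0 bp in each library.

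Of 15 other receptors of the family, 11 had promoter H3K4me3 in all 3 libraries and 4 in none (Eda2r, Edar, Ltbr and Tnfrsf11b), with a median of 907.7 bp. Fas, the death receptor that is used to sort GC B cells, stood out with 8889, 9084 and 8779 bp, ahead of Tnfrsf12a (2721 to 4641 bp) and Tnfrsf8 (1666 to 4800 bp). Eda2r and Edar, receptors of the ectodysplasins, and Ltbr, the lymphotoxin receptor known from stromal cells, were at 0 bp. In these lists too, the share of all genes called by the same rule was 56.2%.

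**Figure D5:**
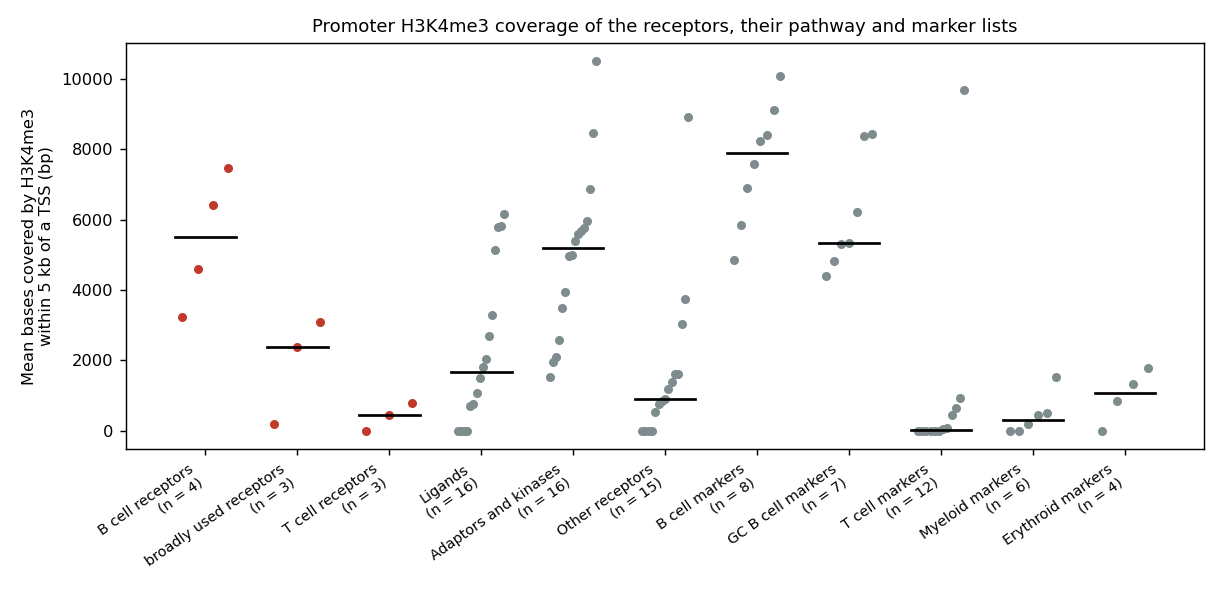
Mean bases covered by H3K4me3 within 5 kb of a TSS (y axis, bp; mean of 3 libraries), with 1 point per gene and the median of each list as a bar. Receptor classes are in red, pathway and marker lists in gray. The medians were 5195.3 bp for adaptors and kinases, 1657.3 bp for ligands and 907.7 bp for other receptors.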

How the data were processed

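Peak lists of 6 Mint-ChIP libraries were used, 3 per mark, and libraries were grouped by mark from their titles. The authors deposited 1 list per library, and how the lists were called was not stated. The deposited columns hold a fold enrichment (a linear ratio), a −log10 p-value and a −log10 q-value per the file layout, which is narrow for H3K4me1 and broad for H3K4me3, with −log10 q-values from 1.31 and 1.02 upwards, respectively. The submitters' processing notes name BWA, Picard, HOMER, Genrich and mm10. The caller's settings and control were not given in the sources used here. An H3K27ac antibody is mentioned in the extraction text of the labels, but the marks were taken from the titles, which match the antibody labels and the paper's methods.

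From these lists, peaks were assigned to the GENCODE M21 basic protein-coding TSSs of GRCm38 (mm10), 0 peaks lying past a chromosome end. Coverage is the number of bases within 5 kb of any own TSS under a peak, so genes with widely spaced TSSs can reach longer coverage. Regions are merged peaks of a mark found in at least 2 of 3 libraries (1 bp overlap). Summit fragments follow from the fold and p-value of a narrow peak, which gave whole numbers for 100% of H3K4me1 peaks (tolerance 0.0005 in −log10 p-value). Marks were compared by two-sided exact permutation tests over 20 assignments. Python 3 scripts with numpy, scipy and pysam were used, and peak assignment was tested on simulated peaks. Promoter sequences came from RefSeq (GRCm38.p6). The members, classes, lists and motifs were chosen with earlier results of these data known. All members are described. Of each pathway list, the 3 genes with the longest mean H3K4me3 coverage and up to 3 without a promoter peak, in alphabetical order, are named with values, and regions for sequences were those in the most libraries with the highest mean fold enrichment, of which 1 is not reported here. Alternatives were stricter peak lists, other windows and TSS sets, other class memberships, leaving out each library, and a replicate block.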

Additional observations from a re-analysis of the deposited data

How the results depend on the processing

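The differences between B cell and T cell receptors in promoter H3K4me3 and in peaks of either mark outside the promoter kept their direction under each alternative run. The difference in promoter H3K4me3 between B cell and T cell receptors (4849.7 bp) was 3916 bp with a −log10 q-value of at least 5, 3018.8 bp with the 10000 best peaks per library, 1426.5 bp with a 1 kb window, 3971.5 bp with the most upstream TSS only, 2969 bp with the broadly used receptors counted as B cell receptors, 5073.5 bp without Tnfrsf18, and 5297.3 bp without promoter peaks over another gene's TSS. Members with promoter H3K4me3 in all libraries numbered 3 instead of 8 with the 10000 best peaks, as did members with more H3K4me3 than H3K4me1 coverage. Members with promoter H3K4me1 numbered 0 instead of 3 with the stricter q-value, with a 1 kb window and where the peak had to cover the TSS. Shares of all genes are given only for the full lists and for peaks over a TSS, and not for the counts at other settings. The difference in H3K4me1 peaks outside the promoter (1.86 per gene) was 0.667 with the stricter q-value and 3.08 with the 1 kb window, and that in H3K4me3 peaks (1.89) was 1.0 and 0.583 with the stricter q-value and the 10000 best peaks. With libraries left out in turn, these results ranged from 4770.5 to 4910.8 bp, from 8 to 9 members with H3K4me3, from 3 to 5 members with H3K4me1 (5 without H3K4me1 replicate 2), from 1.67 to 2.04 and from 1.54 to 2.33 peaks per gene, and from 8 to 9 members with higher H3K4me3. With the replicate block, 8 members had higher H3K4me3 in all 3 pairs, the smallest possible p was 0.25, and no count changed. Deviations of libraries with the same number correlated at 0.136, 0.0514 and 0.0223, so the numbers were not taken as pairs. Summits of H3K4me1 peaks rested on a median of 6 fragments, and summit heights were not obtained for H3K4me3.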
